A study of Homo sapiens and Mus musculus with 30 samples.

Results

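The cytosolic chaperonin TRiC, also called CCT, is a barrel of a pair of stacked rings in which each ring holds one copy of 8 related subunits. The genes of these 8 subunits, TCP1, CCT2, CCT3, CCT4, CCT5, CCT6A, CCT7 and CCT8, were taken by their symbols from the tables of polysome and total RNA, written in title case in the mouse table. All 8 were found, among 11342 genes in the human table, 41128 in the mouse table and 57820 in the table of let-7a transfected cells. The question was whether the RNA of the 8 subunits, and its level on ribosomes relative to total RNA, moved together when the level of LIN28B was changed. Since every ring needs every subunit, the complex is a textbook case of proteins that cells must make in fixed proportion. TRiC folds actin, tubulin and many WD40 repeat proteins, which prefoldin and the phosducin-like proteins help to deliver or release. LIN28B binds RNA, keeps precursors of the let-7 microRNAs from maturing, and also binds many messenger RNAs.

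Both cell lines are established: HEK293A derives from human embryonic kidney, and NIH3T3 from fibroblasts of mouse embryos. Each was sampled at 5 levels of LIN28B, from X0, the lin28b knockout, through X1, X2 and X3 to X4, the highest. LIN28B came from a transgene induced by doxycycline at 10 ng/ml, which the labels state for all groups alike, and cells were kept in DMEM with 10% serum. No source used here says whether X0 cells received doxycycline too, or whether a level is 1 clone. At each level there was 1 library of ribosome-bound (polysome) RNA and 1 of total RNA, 20 libraries in all. A further pair of HEK293A X0 libraries came from cells transfected with mature let-7a at 10 nM with RNAiMAX. In addition, 8 small RNA libraries came from HEK293A knockout and X3 cells, with let-7 at 10 nM or without. For each of these groups, 1 library was total small RNA and 1 was an AGO2 precipitate. The design text speaks of 2 replicates, but the tables give 1 value per level and fraction, so p-values below measure scatter around a line across 5 levels and not the spread between cultures.

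Values are RPKM, reads scaled for gene length and library size. The lengths divided by, worked out from the values, ran from 2830 bases for CCT4 to 5839 for CCT5 in HEK293A. They also differed between lines, with 3901 bases for CCT6A and 1599 for Cct6a. Comparisons of levels between genes therefore depend on the lengths used. The human polysome libraries held 9095975 to 14610155 reads, and the human total libraries 37692677 to 56059444 reads. The mouse polysome libraries held 15929653 to 20818902 reads, and the mouse total libraries 16071673 to 25002825 reads. Each subunit had at least 3802 reads in every HEK293A library of the LIN28B series, at least 735 in every NIH3T3 library and at least 1820 in both let-7a libraries. LIN28B itself followed the labels in HEK293A total RNA, with 3.60, 23.0, 33.4, 81.2 and 208 RPKM from X0 to X4. RNA of the gene was thus still read in the knockout cells, and stood at 1.41 RPKM in X0 total RNA with let-7a. In NIH3T3 the mouse Lin28b row was also higher at each level than at the one before, but only between 0.00740 RPKM at X0 and 0.354 RPKM at X4, and whether reads of the transgene were counted there is not known. Of the HEK293A markers looked for, VIM, KRT8, KRT18, NEFL and CDH2 were present, while PAX2 and NEFM are not listed in the human table and were at most 0.0635 RPKM in the let-7a table. Fibroblast markers were high in NIH3T3 (Col1a1 at least 159 RPKM in total RNA, Thy1 at least 118 RPKM), and Ptprc, Alb and Cd3e were listed at 0.

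The mature let-7a sequence is shown because it was the molecule added to the cells. Its seed, bases 2 to 8, which pairs with target messenger RNAs, is in capitals. The RefSeq entry (build GRCh38.p14) at chr9:94175962-94175983 on the plus strand carries it, and the copies on chromosomes 11 and 22 have the same letters.
hsa-let-7a-5p: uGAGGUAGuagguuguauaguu

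The start regions of the subunit genes are shown because the question is whether these genes move together. Promoters of 300 bases, 250 before and 50 after the start (RefSeq, GRCh38.p14), gave 9 entries for 7 of the subunits, with CCT2 and CCT4 listed more than once. The heat shock element, searched as GAANNTTC, which reads the same on both strands, was found in 2 of the 9, against 6.77% of all 35116 promoters. The CCAAT box, searched as CCAAT on both strands, was found in 4 of the 9, against 34.6% of all promoters. The E-box CACGTG was found in none of the 9, against 7.26% of all promoters. The searched letters stand in capitals, written on the strand of the gene, where ATTGG is a CCAAT box on the other strand.
TCP1 heat shock element, chr6:159789814-159789845, minus strand: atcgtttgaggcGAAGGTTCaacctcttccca
CCT2 heat shock element, chr12:69585788-69585819, plus strand: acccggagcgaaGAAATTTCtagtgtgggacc
CCT2 CCAAT box, chr12:69585356-69585384, plus strand: gcccgtggggctCCAATcaaaatgggacg
CCT8 CCAAT box, chr21:29073695-29073723, minus strand: aagggtgggctaATTGGagagccaggaag
CCT3 CCAAT box, chr1:156338351-156338379, minus strand: ctaaggctgtcaATTGGtctgtttttgtg
TCP1 CCAAT box, chr6:159789740-159789768, minus strand: atcggctatctaATTGGacaaaaatgccg
A second CCAAT box of CCT3 lies nearer its start. The CCAAT box and the heat shock element of CCT2 lie in different start regions of that gene. CCT4, CCT5 and CCT7 had neither of the first 2 motifs in this window, and CCT6A has no entry in the table.

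In HEK293A the total RNA of the subunits hardly varied with LIN28B, while their ribosome-bound RNA did not follow a common course. Polysome RNA of CCT8, CCT2, CCT6A, CCT4 and CCT5 rose with the level of LIN28B, and TCP1 and CCT3 showed slopes near 0. CCT7 stood lower at X4 than at X0, but its polysome slope did not pass. None of the 8 passed in total RNA, where the highest level of a subunit was 1.06 to 1.25 times its lowest. These are bulk lysates, in which fewer cells with an RNA and less of it per cell cannot be told apart. Occupancy, the log2 of polysome RPKM minus the log2 of total RPKM with 0.5 added to each, rose for CCT8, CCT2 and CCT6A and fell for CCT7. The 8 subunits of one complex thus had occupancy slopes on both sides of 0. Because each library is scaled to its own size, occupancy is relative to other genes and is not the fraction of an RNA on ribosomes.

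The polysome slopes, in log2 per level with their SE, were tested with limma over 11125 genes. They were 0.28 ± 0.05 for CCT8 (limma adjusted p = 0.00329), 0.18 ± 0.04 for CCT4 (0.00904), 0.17 ± 0.04 for CCT2 (0.00751), 0.17 ± 0.04 for CCT6A (0.00724) and 0.13 ± 0.04 for CCT5 (0.0233). CCT7 had a polysome slope of -0.10 ± 0.05 that did not pass (limma adjusted p = 0.117).

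CCT8 is the theta subunit and had the steepest slope. Its polysome RNA measured 158, 236, 233, 301 and 369.5 RPKM from X0 to X4. Its total RNA measured 103, 108, 107, 106 and 121 RPKM. The polysome level thus was 2.34 times as high at X4 as at X0, and the total level 1.17 times. The polysome to total ratio stood at 3.06 at X4, against 1.53 at X0. The occupancy slope was 0.24 ± 0.05 log2 per level (SE, limma adjusted p = 0.00442 over 11125 genes).

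CCT2, the beta subunit, was at 269.6, 324, 391, 413 and 437 RPKM in polysome RNA from X0 to X4. Its total RNA stayed between 136 and 147 RPKM. All 4 levels with LIN28B were above X0 in polysome RNA, and the highest level of total RNA was 1.07 times the lowest. Its occupancy slope was 0.19 ± 0.05 log2 per level (limma adjusted p = 0.00847).

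CCT6A, the zeta subunit, was at 231, 283, 324, 356 and 375 RPKM in polysome RNA from X0 to X4, against 155, 163, 163, 149.6 and 168 RPKM in total RNA. Its course was close to that of CCT2, and the occupancy slope was 0.16 ± 0.05 log2 per level (limma adjusted p = 0.0193).

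CCT4 and CCT5, the delta and epsilon subunits, passed in polysome RNA but not in occupancy. CCT4 was at 283, 306, 417, 441 and 441 RPKM in polysome RNA from X0 to X4, and at 194, 223, 226, 216 and 230.04 RPKM in total RNA. CCT5 was at 309, 344, 425, 439 and 435 RPKM in polysome RNA, and at 207, 213, 212, 205 and 219 RPKM in total RNA. Both reached a plateau from X2 on in polysome RNA. The occupancy slopes were 0.14 ± 0.05 for CCT4 (limma adjusted p = 0.0519) and 0.12 ± 0.05 for CCT5 (limma adjusted p = 0.0622).

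CCT7, the eta subunit, went the other way. Its polysome RNA was at 321, 330.2, 341, 319 and 231 RPKM from X0 to X4, so that only X4 was far below X0. Its total RNA was at 229, 269, 269, 268 and 286 RPKM, with all 4 levels above X0. The ratio stood at 0.809 at X4, against 1.41 at X0, which is 0.576 times as high. The occupancy slope was -0.16 ± 0.06 log2 per level (limma adjusted p = 0.0364). After centring libraries on their trimmed means the slope was -0.10 (limma adjusted p = 0.156). The quasi-likelihood test of edgeR on recovered reads gave -0.09 (adjusted p = 0.150), so the call for CCT7 held in neither. With quantile normalization the slope was -0.21 (limma adjusted p = 0.0153), and the call held.

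TCP1, the alpha subunit, and CCT3, the gamma subunit, had no call in any of the 3 measures. TCP1 polysome RNA was at 81.0, 98.3, 84.3, 95.7 and 87.2 RPKM from X0 to X4, against 88.8, 89.7, 92.2, 87.1 and 86.7 RPKM in total RNA. CCT3 polysome RNA was at 394, 381, 443, 459.7 and 384 RPKM, against 256, 270.4, 273, 266 and 272 RPKM in total RNA. Their occupancy slopes were 0.03 ± 0.06 (limma adjusted p = 0.676) and 0.0045 ± 0.06 (limma adjusted p = 0.948). Neither gene moved steadily over the levels. TCP1 overlaps ACAT2, CCT3 overlaps TSACC and CCT4 overlaps COMMD1 in the annotation, and since the strand setting of the counting is not given, reads in these overlaps may belong to either gene.

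**Figure D1:**
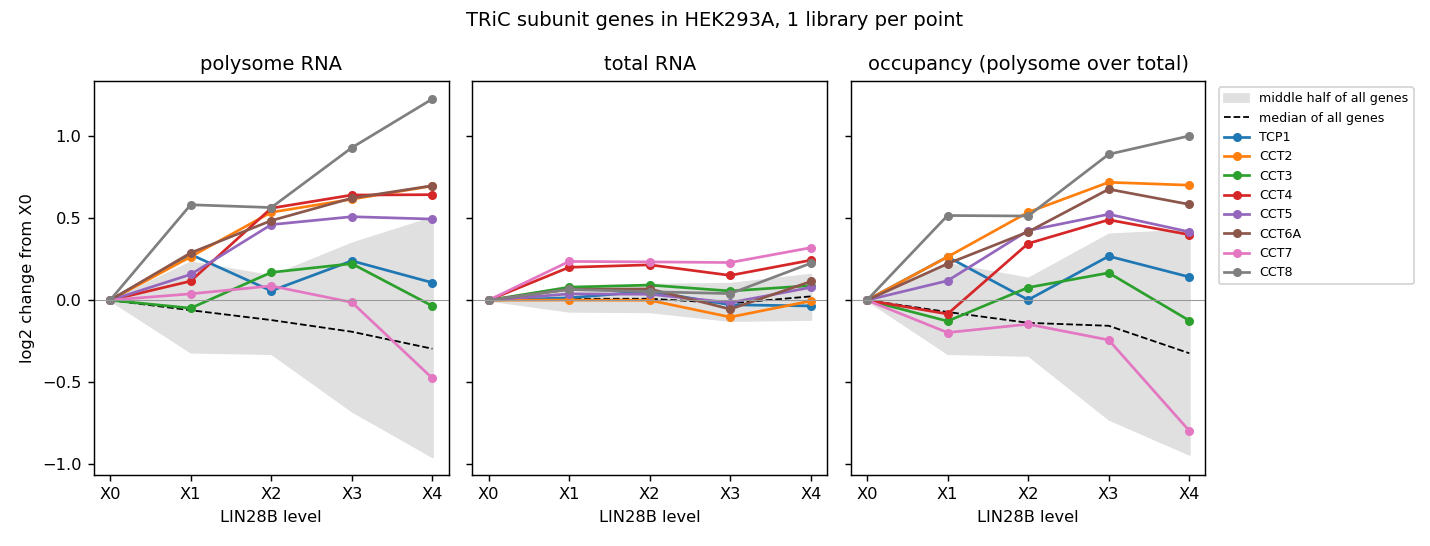
Log2 change from X0 (vertical axis) of the 8 subunit genes in HEK293A over LIN28B levels X0 to X4, for polysome RNA, total RNA and occupancy, with 1 library per point; the grey band holds the interquartile range of all 11125 genes and the dashed line their median. CCT8 is highest in polysome RNA at X4 (1.22) and CCT7 lowest (-0.48), with the same order in occupancy, and in total RNA all 8 stay between -0.10 and 0.32.

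Counted together, 3 of the 8 rose and 1 fell in HEK293A occupancy, where 19.1% of all 11125 genes rose and 39% fell. In polysome RNA, 5 of 8 rose and 0 fell, where 20.3% of all genes rose and 38.6% fell. In total RNA, 0 of 8 rose and 0 fell by limma, where 1.48% of all genes rose and 0.764% fell; edgeR also called 0, and by both tools 1 subunit had an unadjusted p under 0.05 (CCT7, higher). The median occupancy slope of the subunits was 0.13 log2 per level, against -0.07 for all genes. The calls over all genes depend on the scaling: with libraries centred, 3144 genes rose and 3071 fell in occupancy, against 2124 and 4341 as deposited. With that centring, and likewise with edgeR, CCT2, CCT4, CCT5, CCT6A and CCT8 rose and none of the subunits fell. By edgeR 3289 of all 11125 genes rose and 3201 fell in occupancy. With quantile normalization 3 of 8 subunits rose and 1 fell in occupancy, where 2914 of all genes rose and 2960 fell. In polysome RNA with that normalization, 5 of 8 rose and 1 fell, where 3012 of all genes rose and 3041 fell. Without the X0 libraries, or without the X4 libraries, 0 of 8 subunits passed in occupancy or polysome RNA. This is not particular to the subunits: without X4, 0 of 11125 genes passed in either measure, and without X0, 0 passed in polysome RNA and 163 rose and 1511 fell in occupancy. The occupancy slope of CCT8 was 0.18 without X0 and 0.27 without X4, and that of CCT2 0.15 and 0.24.

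Relative to X0 alone, occupancy was higher at every other level for 5 of 8 subunits (TCP1, CCT2, CCT5, CCT6A and CCT8), as for 26% of all genes, and lower at every other level for 1, CCT7, as for 45.7%. Polysome RNA was higher at every other level for 6 of 8 (26.6% of genes) and lower for 0 of 8 (44.7%). Total RNA was higher at every other level for 4 of 8 (25.9% of genes), CCT3, CCT4, CCT7 and CCT8, and lower for 0 of 8 (22.7%). When X1 to X4 were set against X0 as 2 groups with limma, chosen after the values were seen, 0 of 8 passed in occupancy (0.00899% of genes rose and 0.00899% fell), 0 of 8 in total RNA (0.018% rose and 0.00899% fell) and 0 of 8 in polysome RNA (0% and 0%).

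The order of the subunits by total RNA at X0 in HEK293A, in RPKM, was CCT3 (256), CCT7 (229), CCT5 (207), CCT4 (194), CCT6A (155), CCT2 (146), CCT8 (103) and TCP1 (88.8). Over the 5 levels the ranges of CCT3 and CCT7 overlapped, as did those of CCT7 and CCT4 and of CCT5 and CCT4, while CCT8 and TCP1 stayed below all the others. The highest subunit was 2.88 to 3.29 times the lowest in total RNA at each level. In polysome RNA this ratio lay between 3.87 and 5.26. The subunits' summed polysome RNA was 2046, 2302, 2658, 2824 and 2760.3 RPKM from X0 to X4, and their summed total RNA 1380, 1483, 1488, 1434 and 1528 RPKM. The sum of polysome RNA was highest at X3, and the sum of total RNA at X4. The order, the ratios of highest to lowest and the sums all depend on the gene lengths divided by. In reads of X0 total RNA, CCT5 stood highest, at 48786 against 41498 for CCT3, and TCP1 held 17657, against 13894 for CCT8.

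In NIH3T3 the subunits showed another picture, with total RNA highest at X0 for 7 of the 8 and no straight trend over the levels that passed. No subunit passed in occupancy, polysome RNA or total RNA, and neither did any of the 10952 genes tested (0% rose and 0% fell in each). Unadjusted p-values under 0.05 were reached by 0 of the 8 in each measure by limma, and in occupancy by 294 genes with slopes above 0 and 258 below. By edgeR on recovered reads, 0 genes passed in any of the 3 trends, and 1 subunit had an unadjusted p under 0.05, in total RNA. Subunit slopes lay between -0.10 and 0.10 log2 per level in occupancy, with SEs from 0.05 to 0.10. The direction depended on X0: the median slope of the subunits in total RNA was -0.05, and 0.14 without the X0 libraries, where 0 of 8 passed and 5 had an unadjusted p under 0.05 (limma). In occupancy the median was 0.04, and -0.11 without the X0 libraries.

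Cct2 total RNA in NIH3T3 was at 256, 136, 128, 139 and 137 RPKM from X0 to X4, so the 4 levels with LIN28B lay close together and all far below X0. Cct4 total RNA was at 106, 46.2, 52.7, 60.7 and 63.5 RPKM, and Cct8 total RNA at 50.1, 24.4, 24.7, 29.8 and 35.4 RPKM. Cct6a was at 59.5, 35.2, 28.6, 37.6 and 39.1 RPKM. All 4 share this shape, a high X0 and lower values after it.

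The other subunits followed less far. Cct7 was at 169.9, 116, 127, 139 and 148 RPKM in total RNA and Tcp1 at 65.9, 40.2, 38.6, 49.1 and 54.7 RPKM. Cct5 was at 284, 214, 248, 251 and 256 RPKM, and Cct3 at 51.5, 35.7, 38.1, 45.8 and 51.6 RPKM. Cct3 was the one subunit that regained its X0 value, at X4. In all, 7 of the 8 were below X0 at every other level, a pattern held by 39.1% of all genes, and 0 of 8 were above it throughout (34.6%).

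X1 to X4 were also set against X0 as 2 groups, a comparison chosen after the high X0 values were seen. It describes that gap and is no independent test of it, since X0 is 1 library and the limma SE holds no spread for it. The means of X1 to X4 lay below X0 by the following log2 differences: -0.92 for Cct2, -0.93 for Cct4, -0.76 for Cct6a and -0.81 for Cct8. These 4 of 8 were past the threshold downwards and 0 of 8 upwards, where 11.4% of all genes were past it downwards and 11.3% upwards. The X0 total RNA library was also the deepest of the 5, and whether that bears on the difference was not tested. In the same comparison 0 of 8 passed in NIH3T3 polysome RNA, where 2.43% of genes rose and 2.1% fell, and 0 of 8 in occupancy, where 0% did.

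The polysome RNA of NIH3T3 subunits was also mostly below its X0 value. Cct2 was at 196, 130.5, 142, 160.4 and 136 RPKM in polysome RNA, and Cct8 at 93.2, 69.5, 76.7, 86.2 and 78.8 RPKM. Cct5 was nearly flat, between 215 and 232 RPKM. As total RNA is the denominator of occupancy, the low total RNA at X1 stands beside higher occupancy there: the polysome to total ratio of Cct8 was 1.86, 2.85, 3.10, 2.89 and 2.22 from X0 to X4, and that of Cct4 0.653, 1.12, 1.07, 1.05 and 0.864. Occupancy was above X0 at every other level for 6 of 8 subunits (23.6% of all genes) and below it for 0 of 8 (32.6%). Polysome RNA was below X0 at every other level for 6 of 8 (31.7% of genes) and above it for 0 of 8 (29.1%).

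**Figure D2:**
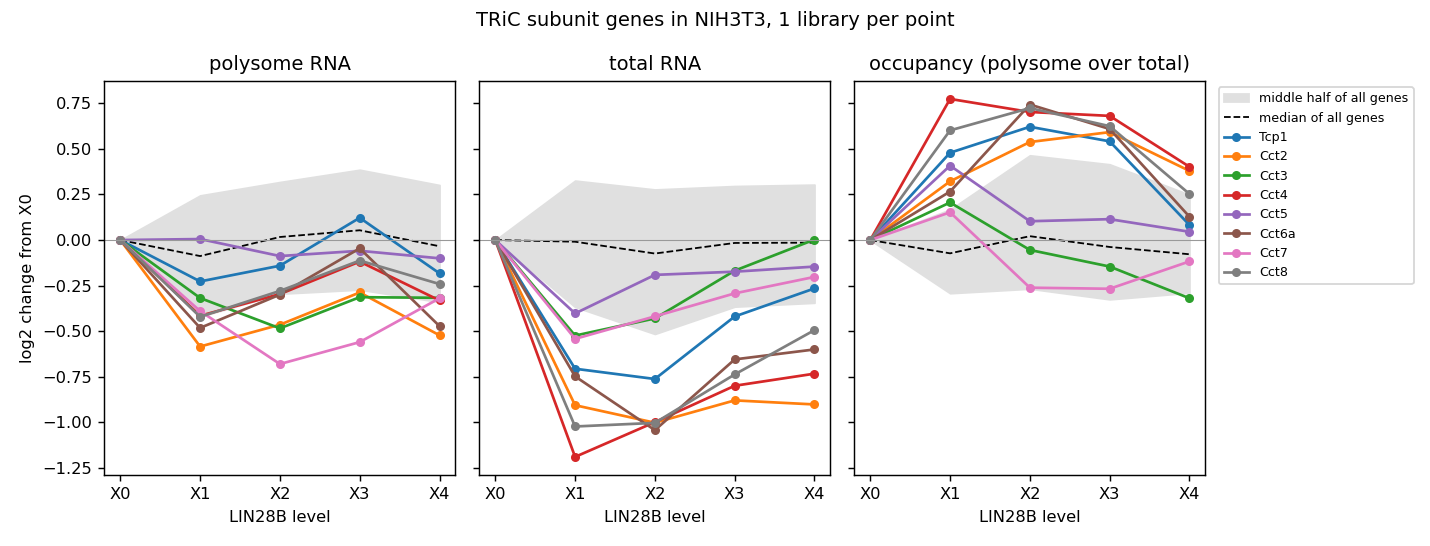
Log2 change from X0 (vertical axis) of the 8 subunit genes in NIH3T3 over LIN28B levels X0 to X4, for polysome RNA, total RNA and occupancy, with 1 library per point; the grey band holds the interquartile range of all 10952 genes and the dashed line their median. In total RNA all 8 lie below 0 at X1, X2 and X3, with Cct4 lowest at X1 (-1.19).

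Between the lines, no subunit's slope passed the test of the difference. By limma over 7257 genes shared by symbol, 0 of 8 subunits passed for occupancy and 0 of 8 for total RNA, where 0% of genes passed in either direction; unadjusted p-values under 0.05 were reached by 0 subunits in both, and in occupancy by 397 genes with a difference above 0 and 2192 below. The differences, HEK293A minus NIH3T3, lay between -0.10 and 0.18 log2 per level in occupancy and between -0.02 and 0.17 in total RNA. A p that misses the threshold does not show that the lines act alike. The direction in total RNA depends on X0: the median difference of the subunits was 0.10, and -0.11 without the X0 libraries, where 0 of 8 passed and 4 had an unadjusted p under 0.05 (limma). In X1 to X4 against X0, chosen after the values were seen and with 1 X0 library in each line, 5 of 8 subunits were past the threshold in total RNA with HEK293A above NIH3T3, where 16.9% of genes were, and 0 of 8 in the other direction, where 9.55% were. Those p-values hold no spread for X0, so they describe these libraries and do not show a difference between the lines. CCT4 had the largest such gap, with a change of 0.20 log2 in HEK293A and -0.93 in NIH3T3.

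**Figure D3:**
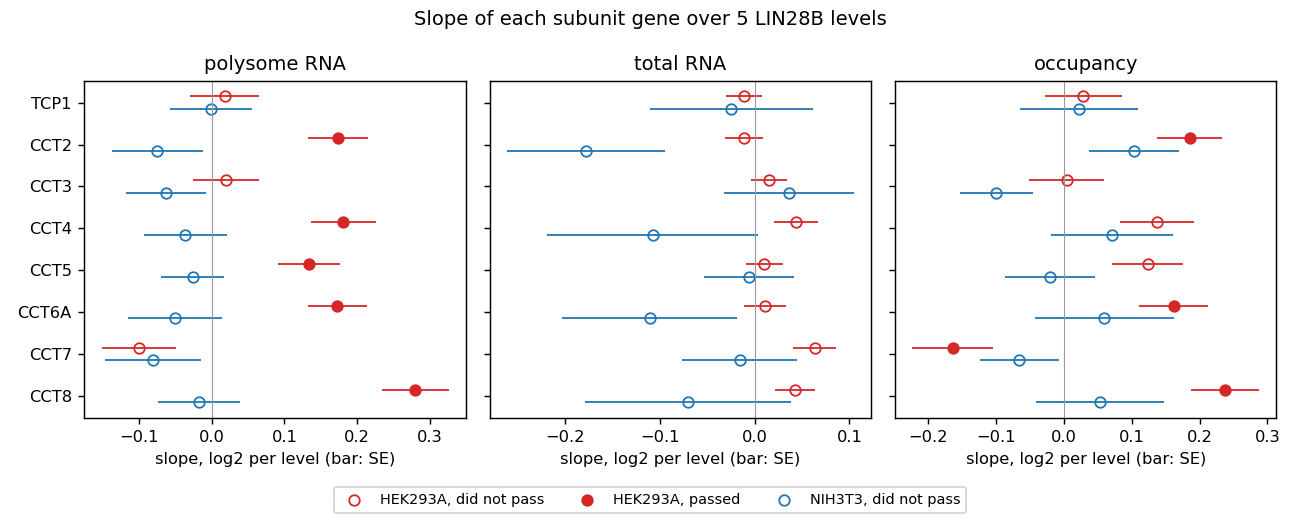
Slope in log2 per LIN28B level (horizontal axis, bars are SE from limma) of each subunit gene in HEK293A (red, upper) and NIH3T3 (blue, lower), for polysome RNA, total RNA and occupancy; filled points have an adjusted p under 0.05. CCT8 has the largest slope in HEK293A polysome RNA (0.28) and occupancy (0.24), and no NIH3T3 point is filled.

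Step by step, the 8 subunits shared a direction at some steps and not at others. In HEK293A total RNA all 8 were higher at X1 than at X0 (53.1% of all genes were), all 8 lower at X3 than at X2 (60.95% of genes) and 7 of 8 higher at X4 than at X3 (61.1%), but these steps were small, with medians of 0.07, -0.06 and 0.09 log2. In NIH3T3 total RNA all 8 were lower at X1 than at X0 (50.7% of genes), with a median of -0.73, and all 8 were higher at X3 than at X2 (64.5%), with a median of 0.23. In HEK293A occupancy 7 of 8 were higher at X3 than at X2 (48.8% of genes) and 7 of 8 lower at X4 than at X3 (62.5%). CCT7 was the exception at the first of these steps and CCT8 at the second. In NIH3T3 occupancy all 8 were higher at X1 than at X0 (41.8% of genes) and 7 of 8 lower at X4 than at X3 (56.4%).

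The spread among the subunits was smallest in HEK293A total RNA. The SD over the 8 of the change between X4 and X0 was 0.12 log2 in HEK293A total RNA, against 0.26 over all genes. In HEK293A occupancy it was 0.56, against 0.81 over all genes. In NIH3T3 it was 0.31 in total RNA, against 0.54 over all genes, and 0.24 in occupancy, against 0.46. The changes of one library share that library, so these SDs describe the set and test nothing. The SDs over all genes take in genes down to an average of 1 RPKM and were not matched to the level of the subunits.

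Some pairs of subunits lay very close to each other over the 5 levels, measured as the root mean square difference of their centred log2 courses. The pairs named were picked from that ranking as the closest in polysome RNA of each line. In HEK293A polysome RNA, CCT2 and CCT6A differed by 0.025 log2; among 11124 other genes CCT6A was number 4 in closeness to CCT2, and CCT2 was number 8 in closeness to CCT6A. In NIH3T3 polysome RNA, Cct4 and Cct8 differed by 0.035 log2, and Cct8 was number 5 of 10951 in closeness to Cct4. CCT7 was the most distant in HEK293A occupancy, where the other 7 subunits had a median place of 8186 among 11124 genes (73.6%). For CCT2 that median place was 797 (7.16%). In NIH3T3 occupancy the median places ran from 2.62% for Cct8 to 64.0% for Cct7. In NIH3T3 total RNA they ran from 4.92% for Cct4 to 63.5% for Cct5. These are descriptions over 5 levels, with every gene read in the same libraries.

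By the same measure, the non-member genes closest to the mean course of the 8 at 10 RPKM or more were named. For HEK293A occupancy they included SDHB, EIF3L, STRBP and MAPRE1, all within 0.0282 log2, and for HEK293A total RNA HSDL1, ANXA7, ANKRD40, HSD17B11 and CDV3, all within 0.0113 log2, out of 4744 genes. For NIH3T3 total RNA they included Flii, Pgam1-ps2, Map2k1 and Gm8910, all within 0.0356 log2, and for NIH3T3 occupancy Nipsnap3b, Fkbp7, Atp5c1, Emd and Slc25a5, all within 0.0461 log2, out of 5186 genes. In HEK293A polysome RNA the second closest gene was PFDN6, a prefoldin subunit (0.0194 log2), named after its values were seen.

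In HEK293A occupancy, genes of the partners that hand clients to TRiC rose where they passed, and most client genes fell. These counts stand beside the 19.1% of all genes that rose and the 39% that fell. Of prefoldin, the complex that carries unfolded actin and tubulin, 3 of 6 measured genes rose and 0 fell, namely PFDN4 (0.42 ± 0.10 log2 per level, limma adjusted p = 0.00602), VBP1 (0.26 ± 0.06) and PFDN5 (0.18 ± 0.05). After centring the libraries, 5 of 6 rose, where 3144 of all 11125 genes rose and 3071 fell. Of the phosducin-like cofactors 1 of 3 rose, TXNDC9 (0.31 ± 0.07). Both genes of the mitochondrial chaperonin rose, HSPD1 (0.16 ± 0.06) and HSPE1 (0.33 ± 0.07). With quantile normalization 1 of 2 passed, where 2914 of 11125 genes rose and 2960 fell. Of the chaperonin-like BBS genes, whose products help assemble a ciliary complex, 2 of 3 rose, BBS12 (0.24 ± 0.05) and BBS10 (0.25 ± 0.08).

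Of the actin and tubulin genes, 11 of 13 fell in HEK293A occupancy (39% of all genes fell) and 1 rose, TUBD1, the delta tubulin. The 3 of smallest p were TUBB2B (-0.36 ± 0.06), TUBG1 (-0.34 ± 0.05) and ACTB (-0.35 ± 0.06), each with a limma adjusted p of 0.00319. Of the WD40 genes 6 of 7 fell and 0 rose, among them the cell cycle regulator CDC20 (-0.38 ± 0.06), the mTORC1 subunit RPTOR (-0.31 ± 0.06) and the G protein subunit GNB1 (-0.26 ± 0.05). Median slopes were -0.29 for the actin and tubulin list and -0.30 for the WD40 list, against -0.07 for all genes. With centred libraries the counts that fell were again 11 of 13 and 6 of 7, and 1 WD40 gene rose. There 3071 of all 11125 genes fell and 3144 rose. In HEK293A total RNA 1 of the 13, TUBB2B, rose and 0 fell, and 0 of the 7 WD40 genes passed.

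The general chaperones were called about as often as all genes (19.1% rose and 39% fell): of the HSP70 and HSP90 list 2 of 10 rose and 4 fell, with HSPB1 (-0.36 ± 0.06), BAG3 (-0.36 ± 0.06) and HSP90AA1 (0.22 ± 0.05) among the smallest p. Of the 14 genes of the proteasome core, another complex built from fixed numbers of related subunits, 7 rose and 1 fell (PSMA7). The 3 proteasome genes of smallest p were PSMA3 (0.25 ± 0.05), PSMA4 (0.27 ± 0.05) and PSMA2 (0.33 ± 0.07). With centred libraries 8 proteasome genes rose and 0 fell, and 3 of the HSP70 and HSP90 list rose and 3 fell. Of all 11125 genes, 3144 rose and 3071 fell with that centring. Like those of the subunits, all list calls need X4, since without its libraries 0 genes passed in HEK293A occupancy. In NIH3T3 no gene of these lists passed in any trend.

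**Figure D4:**
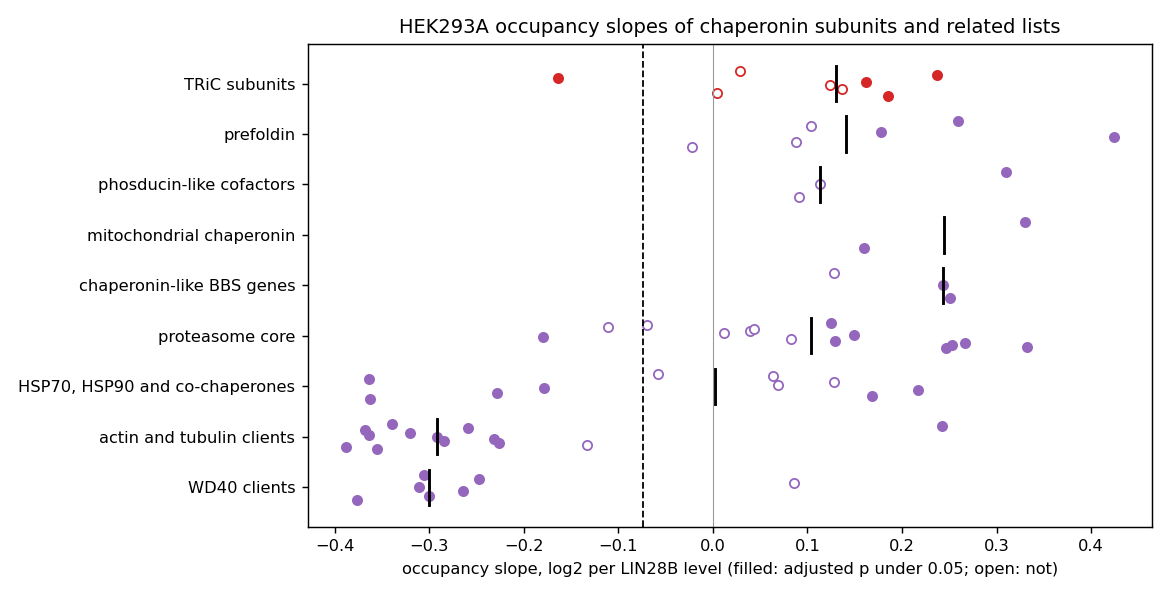
Occupancy slope in HEK293A (horizontal axis, log2 per LIN28B level) of each measured gene of 9 lists, with TRiC subunits in red; filled points have a limma adjusted p under 0.05, short bars mark list medians and the dashed line the median of all genes (-0.07). The subunits' median lies at 0.13, the actin and tubulin list at -0.29 and the WD40 list at -0.30.

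With let-7a added to X0 cells, total RNA of all 8 subunits stood lower than in untransfected X0 cells. The libraries come from separately normalized tables, with 1 library on each side, so no test was made, and the errors given cover counting of reads only. The cells without let-7a were not transfected, so let-7a and the transfection itself cannot be told apart. The let-7a libraries held 7399371 polysome and 35137894 total RNA reads of the genes shared with the human table.

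CCT2 stood lowest relative to untransfected cells, at 99.8 RPKM in polysome RNA with let-7a, against 269.6 RPKM without, and at 84.5 RPKM in total RNA with let-7a, against 146 RPKM without. The log2 differences were -1.43 ± 0.03 in polysome RNA and -0.79 ± 0.02 in total RNA (counting SE). CCT8 was at 72.0 RPKM in polysome RNA with let-7a, against 158 RPKM without, and at 68.7 RPKM in total RNA, against 103 RPKM. For both, polysome RNA was further below untransfected cells than total RNA was.

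CCT3 was at 199 RPKM in polysome RNA with let-7a, against 394 RPKM without, CCT5 at 154 against 309 RPKM, and CCT4 at 145 against 283 RPKM. CCT6A was at 125 RPKM with let-7a, against 231 RPKM without. These 4 had polysome folds between 0.499 and 0.541, close to each other. In total RNA their folds lay between 0.625 and 0.731.

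CCT7 and TCP1 differed from the rest. CCT7 was at 217 RPKM in polysome RNA with let-7a, against 321 RPKM without, and at 156 against 229 RPKM in total RNA, so its ratio was 1.39 with let-7a and 1.41 without. TCP1 polysome RNA was at 81.8 RPKM with let-7a, against 81.0 RPKM without, while its total RNA was at 72.3 against 88.8 RPKM. Its ratio was thus higher with let-7a, 1.13 against 0.912. With let-7a the other 6 ratios lay between 1.05 and 1.19, where in untransfected X0 cells they lay between 1.45 and 1.84.

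In total RNA, 8 of 8 were lower with let-7a (50.7% of all 11125 genes were), and all 8 lay below the lower quartile of all genes, -0.29 log2, TCP1 only just (-0.295 against -0.294) and no longer with a pseudocount of 0.1, where 7 of 8 did. All 8 were at least 1.2 times lower, as 27.4% of genes were. The median difference of the subunits was -0.60, against -0.0060 for all genes. In polysome RNA 7 of 8 were lower (42.8% of genes), with a median of -0.97, against 0.13. In occupancy 7 of 8 were lower (38.9% of genes), with a median of -0.35, against 0.15. With the 2 tables centred on their trimmed means, TCP1 polysome RNA was lower too, at -0.17 log2, which makes 8 of 8 (53.1% of genes).

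Most of the other lists were also lower in total RNA, where 50.7% of all 11125 genes were lower and the median was -0.0060 log2. There 13 of 14 proteasome genes were lower with let-7a (median -0.45 log2), 9 of 10 of the HSP70 and HSP90 list (median -0.67) and 12 of 13 of the actin and tubulin list (median -0.39). Of prefoldin 5 of 6 were lower, as were 3 of 3 phosducin-like genes, 3 of 3 BBS genes and 2 of 2 genes of the mitochondrial chaperonin. The WD40 list was the exception, with 2 of 7 lower and a median of 0.20.

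**Figure D5:**
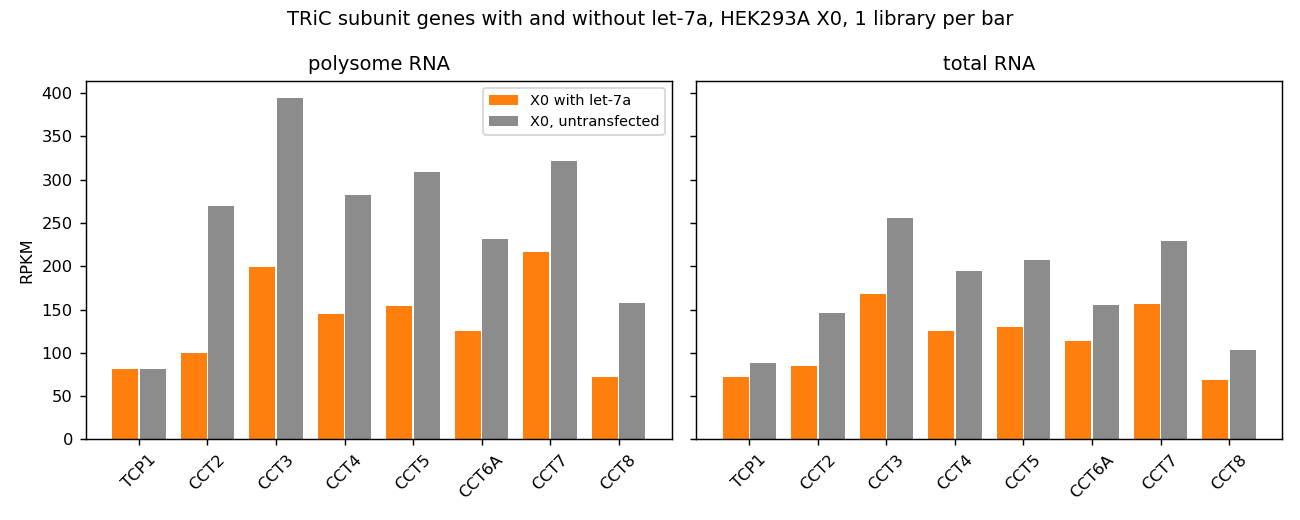
Level in RPKM (vertical axis) of each subunit gene in polysome RNA and total RNA of HEK293A X0 cells with let-7a (orange, left) and without (grey, right), with 1 library per bar. With let-7a all 8 are lower in total RNA, and TCP1 polysome RNA is level (81.8 against 81.0 RPKM).

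The untransfected X0 library is shared by the let-7a comparison and by the LIN28B series, so the values for each gene are given side by side and not related to each other. CCT8 had a polysome fold of 2.34 for X4 over X0 and 0.456 for let-7a over untransfected X0. CCT2 had 1.62 and 0.370, and CCT6A 1.62 and 0.541. CCT4 had 1.56 and 0.512, and CCT5 1.41 and 0.499. TCP1 had 1.08 and 1.01, CCT3 0.976 and 0.505, and CCT7 0.719 and 0.674.

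Small RNA libraries held almost no fragments of the subunit genes. Over the 8 genes, 0 to 6 counts were found per library, out of 73083 to 172995. In the AGO2 precipitates of knockout cells there were 0 of 140139 counts with let-7 and 0 of 157595 without, which allows a share of up to 0.00263% and 0.00234% (upper bound of the exact 95% binomial interval). The largest sum, 6 counts in total small RNA of X3 cells without let-7, all lay on TCP1. The annotation places SNORA20 and SNORA29, small nucleolar RNA genes, within TCP1. It also places SNORA22B and SNORA15 at CCT6A, which had 0 counts in all 8 libraries. Where the counts on TCP1 came from was not tested. The binomial intervals cover counting error only.

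Pseudogenes of the subunits were low. In the let-7a table, which lists 57820 genes, the highest was CCT6P1, at 1.84 RPKM in total RNA, against 114 RPKM for CCT6A. In the mouse table Cct3-ps1 reached 0.506 RPKM and Tcp1-ps1 0.0931 RPKM. The testis paralog CCT6B was at 0.356 RPKM in total RNA with let-7a.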

How the data were processed

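The authors deposited RPKM values for polysome and total RNA and whole-number counts per gene for small RNA. The submitters' processing notes name STAR and cutadapt, with builds hg19 (human) and mm10 (mouse). No source used here gives the counting tool, its strand setting or any pooling of replicates. The human table holds only genes at 1 RPKM or more in every total RNA library. Reads were recovered from the steps of the RPKM values (tolerance 0.02), which gave whole reads for all 11342 human genes and for all 21042 mouse genes above 0. Log2(RPKM + 0.5), for genes averaging 1 RPKM or more, was fitted with limma 3.58.1 (R 4.3.3) by a straight line over level rank 0 to 4, with Benjamini-Hochberg adjustment at 0.05. A fold on this scale understates the change of low genes. edgeR 4.0.16 on the recovered reads was an alternative. Fits were tested on simulated data in which few genes changed and noise was independent between genes. That check does not cover shifts shared by many genes of a library. Named genes were all 8 subunits, up to 3 of smallest p per list, the 5 nearest genes per line and the pseudogenes; some of the nearest genes are not reported here. PSMA7, TUBD1 and PFDN6 as a near gene were named after their values were seen. Members and lists were chosen with earlier results of these data known.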

Additional observations from a re-analysis of the deposited data

Results flagged for a closer look

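For CCT2, CCT4, CCT6A, CCT7 and CCT8 total RNA, the gap between X1 to X4 and X0 was not the same in the 2 lines, as measured against 1 X0 library in each. The differences, HEK293A minus NIH3T3, were 0.90 log2 for CCT2, 1.13 for CCT4, 0.81 for CCT6A, 0.62 for CCT7 and 0.91 for CCT8. The limma adjusted p-values (0.000981 to 0.0158) hold no spread for X0 and do not show a difference between the lines. For CCT4, CCT7 and CCT8 all 4 levels lay above X0 in HEK293A and all 4 lay below X0 in NIH3T3. In polysome RNA the same opposite pattern held for CCT2 (0.99 log2), CCT4 (0.78), CCT6A (0.85) and CCT8 (1.09), but the test of the difference did not pass for any of them (limma adjusted p from 0.201 to 0.326). Every one of these values rests on the 1 X0 library of each line and fraction. The comparison was chosen after the X0 gap was seen, and 0 of 8 passed in the slope difference over all 5 levels.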

How the results depend on the processing

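No paired analysis was possible because each level and fraction has 1 library and no replicate numbers. Counts of subunits called in HEK293A occupancy ranged from 0 to 5 and in HEK293A polysome RNA from 0 to 5 when 1 level was left out in turn, with 0 in both without X0 or without X4. With X1 to X4 set against X0, added after the values were seen, 0 subunits passed in HEK293A occupancy, 0 in HEK293A polysome RNA, 4 in NIH3T3 total RNA and 5 in the difference between lines in total RNA.

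The let-7a medians of the subunits in polysome RNA and occupancy moved when the tables were centred on their trimmed means, to -1.16 and -0.52. Centring shifts every gene by the same amount, so the medians of all genes moved too. They went from 0.13 to -0.05 in polysome RNA and from 0.15 to -0.02 in occupancy. The CCT3 occupancy slope, near 0, changed sign to -0.0339 with quantile normalization, -0.00206 with X1 to X4 set against X0 and -0.00239 per log2 LIN28B RPKM, and its polysome slope to -0.0194 with quantile normalization. Leaving out 1 level gave occupancy slopes from -0.0102 to 0.0541 for TCP1 and from -0.0188 to 0.0704 for CCT3. It gave polysome slopes from -0.0332 to 0.0497 for TCP1, from -0.000170 to 0.0885 for CCT3 and from -0.164 to 0.000949 for CCT7. The causes were not tested. Over all genes, 6465 passed in HEK293A occupancy, against 1674 without X0, 0 without X4 and 2 with X1 to X4 against X0. In HEK293A total RNA 165 rose and 85 fell, against 56 in all among genes averaging 5 RPKM or more, 537 without X4, 127 without X3 and 3 without X0. The occupancy slope difference between lines had 0 genes, against 1019 among genes averaging 5 RPKM or more, 560 with no filter on low values, 593 with a pseudocount of 1, 217 with quantile normalization and 940 without X2, and NIH3T3 total RNA had 0, against 79 without X0 and 2479 with X1 to X4 against X0. NIH3T3 polysome RNA had 0, against 3 with centred libraries, 10 without X1, 6 without X2 and 496 with X1 to X4 against X0. Without X0 the median subunit slope in NIH3T3 changed sign in total RNA (0.14) and in occupancy (-0.11), as did the median difference between lines in total RNA (-0.11). With 1 library per level, no value has a spread between cultures.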
